A study of Mus musculus with 6 samples.

Results

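The prostaglandin and leukotriene pathway was followed through 10 genes, Ptgs1, Ptgs2, Ptges, Ptgds, Ptgis, Hpgds, Ptger2, Ptger4, Alox5ap and Ltc4s, which were taken by their symbols from the 32285 genes of the count matrix. All 10 were found. The study sequenced single cells from the cortex of male RGS5::GFP het mice, aged 8 to 12 weeks, after permanent middle cerebral artery occlusion (pMCAO). In these mice GFP takes the place of 1 allele of Rgs5, a pericyte gene, so every library carries that change. There were 6 groups with 1 library each: the stroke side (IPSI) and the matching cortex of the other hemisphere (Contra), at 1, 12 and 24 h. The study lists fewer mice than libraries for this experiment, so some libraries share an animal. It sequenced the 1 and 12 h samples on a NovaSeq instrument and the 24 h samples on a HiSeq. The brains were rinsed with saline and digested with enzymes, and myelin and neurons were removed by a spin, so neurons are largely missing. The cells of the matrix carry a library number from 1 to 6 that no label ties to a side or a time. The libraries are therefore given by number, no comparison between the hemispheres or the times was made, and cells, which are not replicates, gave no p-value.

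Prostaglandins and leukotrienes are short-lived lipid signals made from arachidonic acid, which phospholipases free from membranes. The cyclooxygenases, Ptgs1 and the inducible Ptgs2, turn it into prostaglandin H2, and terminal synthases then make prostaglandin D2, prostaglandin E2, prostacyclin or thromboxane, each of which acts on its own receptors. On the other branch 5-lipoxygenase, helped by the protein that Alox5ap encodes, makes leukotriene A4, from which Ltc4s makes the cysteinyl leukotrienes. In the brain these lipids are known for their actions on vessel tone, barrier leakage, fever, sleep and inflammation.

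Of the 10 genes, 8 had an entry for the promoter in the RefSeq table (GRCm38.p6). Those of Ptgs1, Hpgds and Ltc4s are printed because these 3 genes shared a cell class, and that of Ptgs2 because its level differed from theirs in the same class. Each runs 5′ to 3′ from 250 bases before the start of the gene to 30 bases into it, and capitals mark a motif.
Ptgs1, chr2:36230176-36230455, plus strand: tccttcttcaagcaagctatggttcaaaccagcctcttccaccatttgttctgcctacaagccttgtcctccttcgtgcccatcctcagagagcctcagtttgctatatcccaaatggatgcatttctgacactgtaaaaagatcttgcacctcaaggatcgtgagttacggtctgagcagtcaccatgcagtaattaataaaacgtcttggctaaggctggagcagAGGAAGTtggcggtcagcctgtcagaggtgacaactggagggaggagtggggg
Hpgds, chr6:65144701-65144980, minus strand: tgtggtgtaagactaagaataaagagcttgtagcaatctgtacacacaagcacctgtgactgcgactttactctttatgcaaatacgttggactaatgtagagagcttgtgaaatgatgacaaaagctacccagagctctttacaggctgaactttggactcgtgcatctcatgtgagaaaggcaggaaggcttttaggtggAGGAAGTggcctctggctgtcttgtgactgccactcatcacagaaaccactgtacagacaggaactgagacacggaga
Ltc4s, chr11:50238503-50238782, minus strand: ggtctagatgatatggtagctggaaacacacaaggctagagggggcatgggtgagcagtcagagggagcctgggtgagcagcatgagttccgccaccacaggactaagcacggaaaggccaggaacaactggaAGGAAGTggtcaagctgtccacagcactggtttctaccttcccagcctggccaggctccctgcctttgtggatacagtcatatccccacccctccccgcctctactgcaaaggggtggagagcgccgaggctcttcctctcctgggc
Ptgs2, chr1:150099781-150100060, plus strand: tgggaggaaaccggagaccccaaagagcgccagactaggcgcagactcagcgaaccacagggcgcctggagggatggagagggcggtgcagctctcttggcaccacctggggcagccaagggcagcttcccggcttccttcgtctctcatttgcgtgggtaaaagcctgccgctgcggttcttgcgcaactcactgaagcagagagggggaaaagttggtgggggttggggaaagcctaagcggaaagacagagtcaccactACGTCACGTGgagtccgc
The capitals in the first 3 are AGGAAGT, which holds the GGAA core known to be bound by ETS factors such as PU.1 of myeloid cells. It was searched on both strands and chosen after the promoters had been seen. Of the 8 promoters, 3 held it, and so did 8.81% of all 27025 promoters of the same length. In the Ptgs2 promoter the capitals cover TGACGT, read on the opposite strand, and CACGTG, which overlap. They start 13 and 17 bases after the gene's start, and no other printed gene has either. TGACGT was found in 7.40% and CACGTG in 6.89% of all promoters. A match to these letters is a description and was not tested as a binding site.

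After filtering, 17357 cells remained, 1221 to 5873 per library, with library medians of 5053 to 5660.5 unique molecular identifiers (UMIs, each 1 captured RNA molecule) per cell. Between libraries, 26 cell barcodes were shared, and leaving out their 52 cells moved no member's highest level by more than 0.482%. Doublets were called in 0.987% to 2.74% of the cells of a library and were kept. The cells fell into 25 clusters, formed without the 10 genes and 33 other genes of the pathway among the variable genes. By markers 13 kinds of cell could be named, and they carry the ending -like, since the names were rebuilt and are not the study's. A cluster led by Cd74 and other class II genes matched perivascular macrophage markers best, but its leading genes were of another kind, so it is called Cd74-high myeloid. A cluster of 31 cells, all called doublets, stayed unnamed. The T lymphocyte-like cells were also led by Gzma and Nkg7, genes of cytotoxic cells. There were 8131 microglia-like, 2801 oligodendrocyte-like, 2749 endothelial-like, 1167 astrocyte-like and 870 pericyte-like cells, but 31 fibroblast-like and 22 choroid plexus-like cells. Monocyte-derived macrophage-like cells came mostly from libraries 4 and 6, with 122 and 237 of 377 cells, and neutrophil-like cells gave 90 and 47 of 178 there. Levels are UMIs of a gene per 1000000 UMIs of the same cells (CPM) with exact 95% Poisson intervals, shares of cells carry exact binomial ones, and both cover counting error only.

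The members were split over cell classes. By level, 3 were highest in microglia-like cells (Ptgs1, Hpgds, Ltc4s), 2 in neutrophil-like cells (Alox5ap, Ptger2) and 2 in fibroblast-like cells (Ptges, Ptgis). Ptgs2 was highest in monocyte-derived macrophage-like cells, Ptgds in oligodendrocyte-like cells and Ptger4 in the Cd74-high myeloid cells. A level at least 4 times that of the next class was found for 3 of the 10, Ptgs1, Ptgds and Hpgds, against 12.1% of all genes with at least 100 UMIs. For Ptgs1 and Hpgds the next class was Cd74-high myeloid, a mixed class whose groups are given below. More than 50% of a member's UMIs lay in 1 class for 8 of the 10, or 7 of the 9 with at least 100 UMIs, against 48.1% of such genes. Microglia-like cells held most UMIs of 6 members. Since microglia-like cells made up 46.8% of all cells, the class with most UMIs was not always the class with the highest level.

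**Figure D1:**
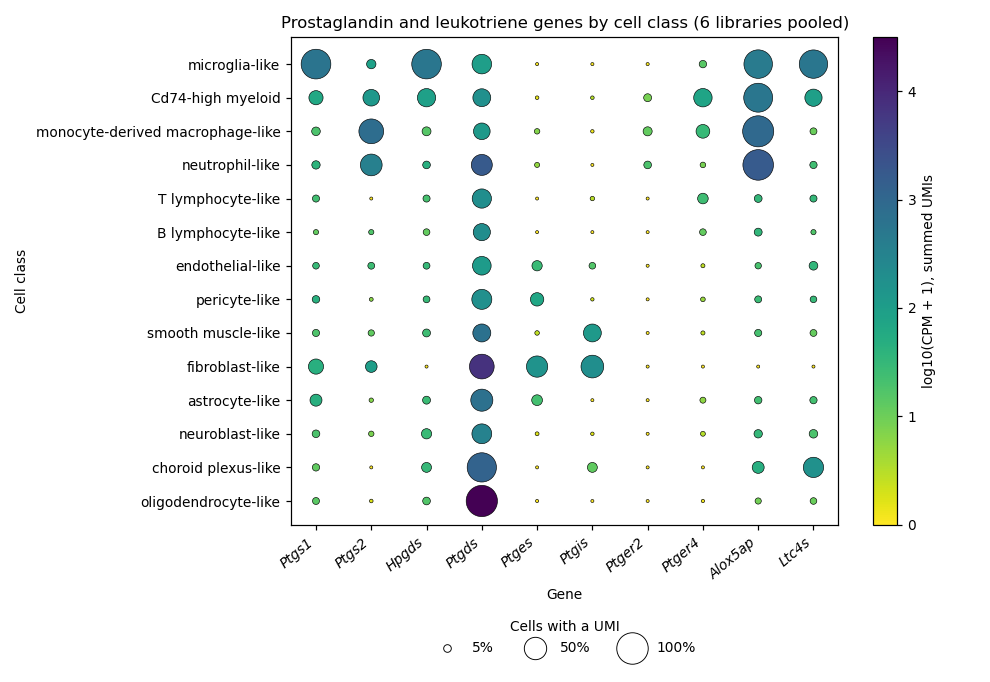
The 10 genes (columns) in each cell class (rows), all 6 libraries pooled. The colour gives log10(CPM + 1) of the summed UMIs and the dot's area the percent of cells with a UMI. Ptgds stood at 31694 CPM in oligodendrocyte-like cells, and Ptgs1, Hpgds and Ltc4s were highest in microglia-like cells.

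Ptgs1, the constitutive cyclooxygenase, was mostly found in microglia-like cells. Its level there was 589 CPM (582 to 596), and 89.0% (88.3 to 89.6) of 8131 cells had a UMI at a median depth of 5150 UMIs, or 44.5% when each cell was thinned to 1000 UMIs. In oligodendrocyte-like cells, with a median of 8876 UMIs, 4.03% had a UMI and 1.11% after thinning. The next class, Cd74-high myeloid, was 9.38 times lower (7.98 to 11.1) at 62.8 CPM. From there down to the lowest class no neighbouring pair in the order differed beyond its interval. Classes further apart could differ. Cd74-high myeloid (53.1 to 73.8) and oligodendrocyte-like cells (13.3 CPM, 11.9 to 14.7) had separate intervals. In the 6 libraries the microglia-like level was 650 CPM in library 1, 654 in library 2, 628 in library 3, 479 in library 4, 736 in library 5 and 562 in library 6. The highest was 1.54 times the lowest. In endothelial-like cells Ptgs1 stood at 4.82% of its microglia-like level, and 7 microglia markers stood there at 4.42% to 5.20% of theirs. Barcodes with 1 to 50 UMIs, which hold free RNA, gave 109 to 195 CPM of Ptgs1. In astrocyte-like cells Ptgs1 stood at 7.51% of its microglia-like level, against a marker median of 4.54% and a range of 3.64% to 20.1%. In Cd74-high myeloid cells Ptgs1 was at 10.7% against 5.08% (4.12% to 33.1%), and in neutrophil-like cells at 6.47% against 4.50% (1.35% to 6.33%). The part of free RNA in the levels outside microglia-like cells was not tested.

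Ptgs2, the inducible cyclooxygenase, had another distribution. Its highest level was 809 CPM (779 to 839) in monocyte-derived macrophage-like cells, where 61.5% of 377 cells had a UMI (30.5% when thinned, median depth 8867 UMIs), against 0.393% of oligodendrocyte-like cells. Neutrophil-like cells followed at 368 CPM (324 to 416), 2.20 times lower (1.93 to 2.51), and Cd74-high myeloid cells at 126 CPM were 2.93 times below those. The fibroblast-like level, 96.1 CPM (57.9 to 150), lay between those of Cd74-high myeloid and microglia-like cells. It differed from neither beyond the interval of the ratio, but rested on 19 UMIs in 31 cells, 15 of them in 1 cell. Cd74-high myeloid cells (126 CPM, 112 to 141) and microglia-like cells (86.1 CPM, 83.5 to 88.9) had separate intervals. Endothelial-like cells, at 24.6 CPM, were 3.50 times below microglia-like cells (3.12 to 3.95). Free RNA gave 4.70 to 74.5 CPM across libraries. Because microglia-like cells were so many, they still held 50.8% of all 7639 Ptgs2 UMIs.

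Within the macrophage-like cells Ptgs2 differed between both libraries that held enough cells. It was 1476 CPM in library 4 and 509 in library 6, a ratio of 2.90 (2.69 to 3.13). In neutrophil-like cells it was 400.3 CPM in library 3, 485 in library 4 and 103 in library 6. Libraries 4 and 6 differed in the same direction in both classes, with library 6 lower, and in neutrophil-like cells the ratio was 4.69 (2.88 to 8.10). The macrophage-like level was 618 CPM when the Ptgs2 UMIs of the 5 cells of highest count were left out and their depth was kept.

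In microglia-like cells the libraries also stood apart for Ptgs2. The level was 19.1 CPM in library 1, 10.96 in library 2, 25.1 in library 3, 192 in library 4, 31.5 in library 5 and 116 in library 6. Libraries 4 and 6 were thus the high ones, and library 6 was 3.69 times library 5 (3.09 to 4.42). A ratio of at least 3 between the highest and the lowest library was reached by 3 of the 7 members with enough UMIs in this class, Ptgs2, Ptgds and Ptger4, against 16.4% of all genes tested. In this and the other classes, the genes tested had at least 100 UMIs but were not matched to the members for count, and low counts can widen such a ratio. Ptgs2 had the widest ratio, 17.6. In microglia-like cells Ptgds stood at 0.309% of its oligodendrocyte-like level and oligodendrocyte markers at a median of 0.486%.

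**Figure D2:**
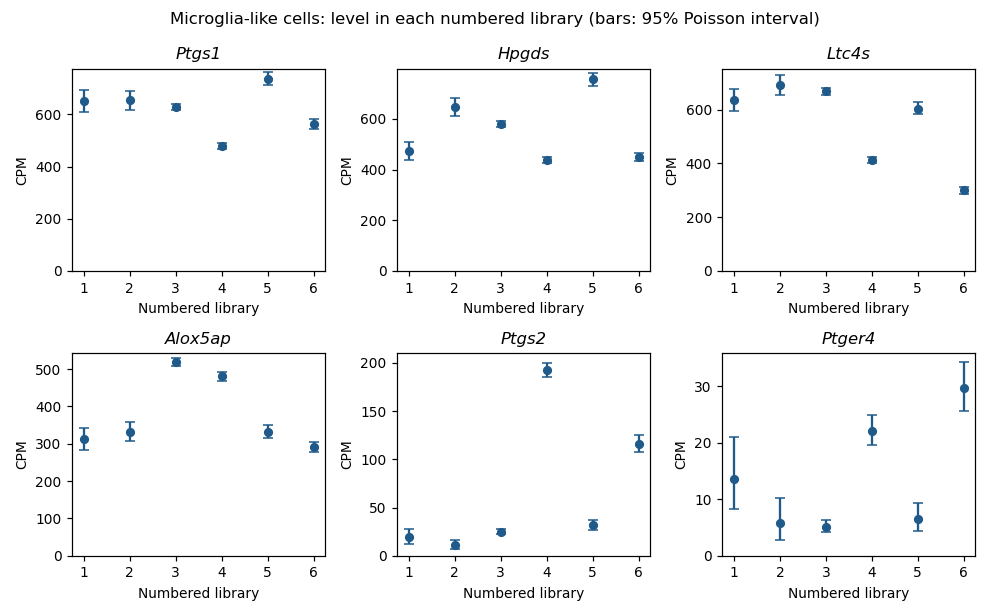
Level of 6 members in microglia-like cells (CPM, y axis from 0) in each of the 6 numbered libraries, 1 panel per gene, with exact 95% Poisson intervals. Ptgs2 reached 192 CPM in library 4 and 116 in library 6, whereas Ltc4s was lowest in those libraries, at 412 and 299.99 CPM.

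The microglia-like cells formed 5 clusters, and the members divided between them. Cluster 5 was led by Spp1, Ccl12 and Lpl, genes raised in activated microglia, and held 1481 cells, of which 829 were from library 4, 603 from library 6 and 24 from library 3. Cluster 1, whose first genes were the haemoglobin genes Hbb-bs, Hba-a1 and Hba-a2, followed by P2ry12 and Gpr34, held 2349 cells and had the fewest immediate-early transcripts, 2637 CPM against 13142 in cluster 5. As clusters were formed from these cells, their differences are descriptions. Ptgs2 was 271 CPM in cluster 5, 46.5 in cluster 3, 29.5 in cluster 0, 8.73 in cluster 21 and 4.52 in cluster 1. Cluster 3 had the most immediate-early transcripts, 30453 CPM, and came after cluster 5 in Ptgs2. Clusters 0 and 21 had 12396 and 8752 CPM of them, so clusters 3, 0 and 1 kept the same order in both measures. Cluster 21 lay between clusters 0 and 1 in both, but its 44 cells were too few to set its place in Ptgs2. Cluster 5, highest in Ptgs2, had 13142 CPM. The part of the immediate-early response in the Ptgs2 levels was not tested. Within single libraries cluster 5 exceeded cluster 1 by 55.8 times (35.2 to 94.3) in library 4, 17.9 times (6.95 to 65.8) in library 6 and 35.6 times (17.7 to 71.9) in library 3. It exceeded cluster 3 by 4.68 times (3.98 to 5.52) in library 4, 2.31 times (1.69 to 3.24) in library 6 and 2.66 times (1.57 to 4.25) in library 3. Each of these lay below the pooled ratio to cluster 3 of 5.83.

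Ptgs2 was unevenly spread over microglia-like cells. Only 7.97% of them had a UMI, and the 81 richest cells held 52.4% of the Ptgs2 UMIs. There were 114 cells with at least 10 UMIs, 91 of them in cluster 5. By library, 80 came from library 4, 19 from library 6, 10 from library 3 and 5 from library 5. Macrophage markers summed to 3.93 CPM in these 114 cells and to 3479 CPM in the macrophage-like cells. The 7 microglia markers summed to 6827 CPM in the 114 cells, below the 17530 CPM of cells with no Ptgs2 UMI. The 114 cells also had less Ptgs1 (219 against 617 CPM) and Ltc4s (128 against 570 CPM) and more Ptger4 (85.5 against 10.5 CPM).

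**Figure D3:**
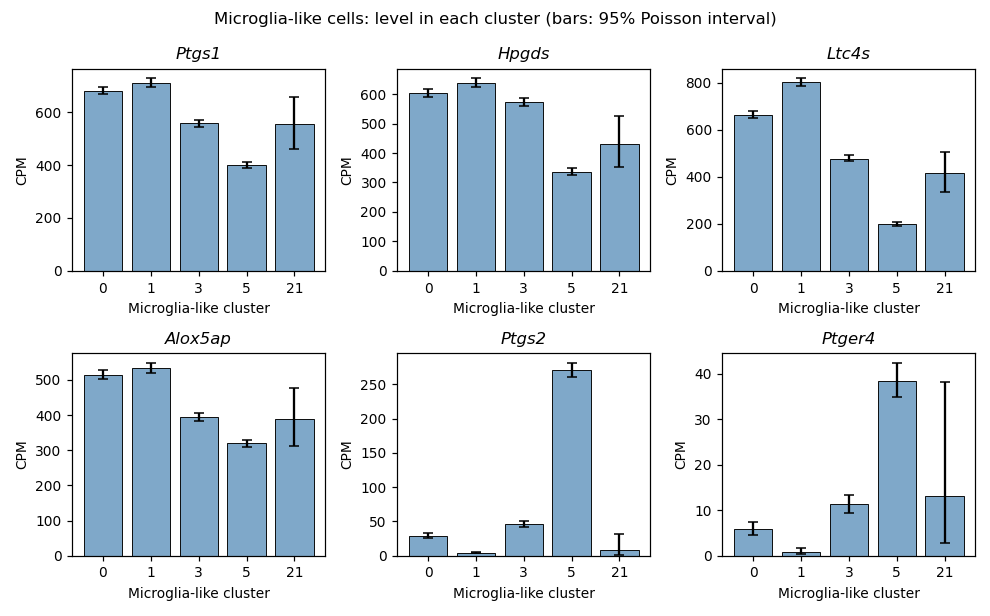
Level of 6 members in the 5 microglia-like clusters (CPM, bars from 0), 1 panel per gene, with exact 95% Poisson intervals. In cluster 5 Ptgs2 and Ptger4 were at their highest among the clusters (271 and 38.4 CPM) and Ltc4s at its lowest (199 CPM).

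Hpgds, the synthase that makes prostaglandin D2 in blood-derived cells and microglia, followed Ptgs1. It stood at 538 CPM (531 to 545) in microglia-like cells, 5.91 times (5.17 to 6.80) the 91.0 CPM of Cd74-high myeloid cells, and 88.3% of microglia-like cells had a UMI (41.6% when thinned). By library it was 473 CPM in library 1, 645 in library 2, 581 in library 3, 436 in library 4, 756 in library 5 and 450.0 in library 6. Libraries 4 and 6 were the lowest along with library 1. Cluster 1 had 1.89 times the level of cluster 5 (1.82 to 1.97), and the same order held within libraries 3, 4 and 6.

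Ptgds, the other prostaglandin D2 synthase, which is also a carrier protein of the cerebrospinal fluid, marked the oligodendrocyte-like cells. It reached 31694 CPM (31625 to 31763) there, 98.8% of 2801 cells had a UMI (93.9% when thinned), and 97.9% of all its UMIs lay in that class. Its level was 19213 CPM in library 1, 20375 in library 2, 44271 in library 3, 42053 in library 4, 28520 in library 5 and 20115 in library 6. Libraries 3 and 4 were high and the others lower, with a ratio of 2.30 between library 3 and library 1. Over the same libraries Mbp, a myelin protein gene, ranged from 4226 to 4978 CPM and was also highest in library 3. In oligodendrocyte-like cells 4 of the 5 members tested, Ptgs1, Hpgds, Alox5ap and Ltc4s, spread at least 3 times between libraries, against 9.18% of genes, each from a low level that was highest in library 3. These 4 stood there at 1.83% to 2.92% of their microglia-like levels, and microglia markers at a median of 2.34%. Library 3 held the most microglia-like cells (3317), and the part of free microglial RNA in this spread was not tested.

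The oligodendrocyte-like clusters differed in Ptgds. It was 35957 CPM in cluster 4, 35941 in cluster 8 and 7329 in cluster 11, a cluster of 379 cells with Apod, Mobp and Stmn4 among its leading genes. The ratio of cluster 4 to cluster 11 was 4.91 overall and 3.13 to 10.2 within the 6 libraries, higher in cluster 4 in each of them. Cluster 8, though level with cluster 4 when pooled, had less Ptgds than cluster 4 in the libraries with enough of its cells, at 14776 CPM in library 1, 44599 in library 3, 41366 in library 4 and 13474 in library 6.

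**Figure D4:**
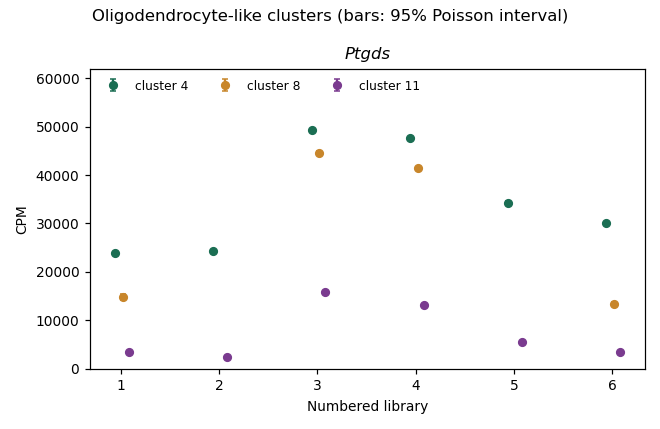
Level of Ptgds (CPM, y axis from 0) in the oligodendrocyte-like clusters 4, 8 and 11 by numbered library, where a cluster held enough cells, with exact 95% Poisson intervals. Cluster 11 lay below cluster 4 in all 6 libraries, and cluster 4 ran from 23822 CPM in library 1 to 49397 CPM in library 3.

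In several other classes Ptgds rested on few cells. Fibroblast-like cells came next at 7279 CPM, 4.35 times lower (4.13 to 4.59), where 5 of 31 cells held 80.2% of the UMIs. None of these 5 was called a doublet, and oligodendrocyte markers summed to 131 CPM in them and to 156 CPM in the remaining cells. In neutrophil-like cells 5 cells held 90.7% of the Ptgds UMIs and in smooth muscle-like cells 91.9%, with 2 doublet calls in each set of 5 and oligodendrocyte markers at 18163 and 23065 CPM in them. All 5 of the richest astrocyte-like cells were called doublets, and the class level of 695 CPM stood at 325 CPM without them. Free RNA gave 5504 to 13671 CPM of Ptgds, and choroid plexus-like cells, where Ptgds is known to be made, stood at 3.84% of the oligodendrocyte-like level against at most 0.506% for oligodendrocyte markers.

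Ptges, the inducible prostaglandin E2 synthase, was highest in fibroblast-like and pericyte-like cells. It was 152 CPM (102 to 217) in 31 fibroblast-like cells, 66.7 CPM (58.3 to 76.0) in pericyte-like cells, 27.3 CPM in endothelial-like cells and 20.8 CPM in astrocyte-like cells, and each of these neighbours in the order differed beyond its interval. Smooth muscle-like cells, also of the vessel wall, had 3 UMIs in 256 cells (1.66 CPM), and free RNA gave 2.24 to 5.58 CPM. In pericyte-like cells it was 38.9 CPM in library 1, 16.8 in library 2, 41.1 in library 3, 125 in library 4, 37.4 in library 5 and 116 in library 6. Libraries 4 and 6 were again the high ones and differed little from each other (ratio 1.07, 0.761 to 1.52), and library 6 was 2.83 times library 3 (1.94 to 4.15). In this class 3 of 3 members tested, Ptgs1, Ptges and Ptgds, reached a ratio of 3 between libraries, against 21.0% of genes. Ptgs1 had no UMI in library 2, so its ratio was a lower bound. In pericyte-like cells Ptgs1 stood at 7.28% of its microglia-like level and microglia markers at a median of 7.61%. Ptgds stood at 0.560% of its oligodendrocyte-like level and oligodendrocyte markers at a median of 0.857%. The part of free RNA in both was not tested.

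The high pericyte-like libraries were those with a second pericyte-like cluster. Cluster 19, led by Il11, Ccl11 and Ednrb, had 61 cells, 27 from library 4 and 34 from library 6. Ptges was 251 CPM (202 to 307) there against 44.1 CPM (36.9 to 52.3) in cluster 6, a ratio of 5.68 (4.31 to 7.47), and the ratio was 4.13 within library 4 and 4.23 within library 6. Without cluster 19, the pericyte-like cells of cluster 6 gave 38.9, 16.8, 41.1, 68.6, 37.4 and 52.9 CPM of Ptges in libraries 1 to 6, still highest in library 4. The pericyte-like receptors and enzymes that were high in cluster 6 were lower in cluster 19. Tbxa2r, the thromboxane receptor, was 235 against 84.5 CPM, Cysltr2, a cysteinyl leukotriene receptor, 151 against 8.18 CPM, and Ggt5, which trims leukotriene C4, 415 against 92.7 CPM. Ptgir, the prostacyclin receptor, went the other way, at 2.01 CPM in cluster 6 and 76.3 CPM in cluster 19. These levels rested on 6 and 28 UMIs, and in library 4 on 1 and 6. By class, Ptgir was highest in smooth muscle-like cells.

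Endothelial-like cells held 43.6% of the Ptges UMIs. By library the level was 12.0 CPM in library 1, 28.5 in library 2, 22.7 in library 3, 57.3 in library 4, 12.9 in library 5 and 28.8 in library 6, highest in library 4. Here 8 of the 8 members tested spread at least 3 times between libraries, against 18.4% of genes, and 5 did so without library 3. Some of these ratios rested on few UMIs. Ptgs1, at 1.72 CPM in library 1, had a ratio of 35.7 with an interval of 6.33 to 1415. Ptgs1, Hpgds, Alox5ap and Ltc4s of this class were highest in library 3, where the microglia-like cells were most numerous (3317 cells), and the part of free microglial RNA in this was not tested. Of the 3 endothelial-like clusters, cluster 9, led by Ctla2a, Tmem252 and Lcn2 and found mostly in libraries 4 (178 cells) and 6 (324 cells), had the highest Ptges, 54.7 CPM against 22.2 in cluster 2 and 4.78 in cluster 14. It also had the highest Ptgs2, 67.1 CPM against 13.1 in cluster 2. The 20 cells of cluster 9 in library 3 gave 39 of its 185 Ptgs2 UMIs, at 359 CPM against 31.0 in cluster 2. In libraries 4 and 6 Ptgs2 of cluster 9 was 54.8 and 49.8 CPM, against 8.38 and 0.928 in cluster 2. Free RNA of libraries 4 and 6 gave 74.5 and 64.6 CPM. Endothelial-like Ptgs2 rested on few cells, as 5 cells held 41.5% of its UMIs. Its level fell from 24.6 to 14.4 CPM when their Ptgs2 UMIs were left out and their depth was kept.

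Ptgis, the prostacyclin synthase, was highest in the cells around larger vessels. It was 192 CPM (136 to 264) in fibroblast-like cells and 121 CPM (106 to 139) in smooth muscle-like cells, a ratio of 1.58 (1.09 to 2.24), and 15.9 CPM in endothelial-like cells. Libraries 1 and 2 held 7 smooth muscle-like cells each, too few to give a level, and libraries 3 to 6 gave 72.7, 92.1, 200.4 and 99.9 CPM. Library 5 was the high one, 2.01 times library 6 (1.43 to 2.85). Among endothelial-like clusters Ptgis was 44.4 CPM in cluster 14, whose arterial markers summed to 1751 CPM, 32.3 in cluster 9 and 5.36 in cluster 2. Cluster 14 was 8.29 times cluster 2 (5.57 to 12.4) and higher in each of the 5 libraries with enough of its cells. Cluster 9 was 6.02 times cluster 2 when pooled, but library 6 gave 76 of its 89 UMIs. The ratio was 11.7 (4.39 to 44.1) in library 6 and 0.934 (0.194 to 3.94) in library 4, and neither cluster had a Ptgis UMI in library 3. In pericyte-like cluster 19 no Ptgis UMI was seen in 61 cells. All 870 pericyte-like cells had only 4 (1.19 CPM), so this absence does not set cluster 19 apart.

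**Figure D5:**
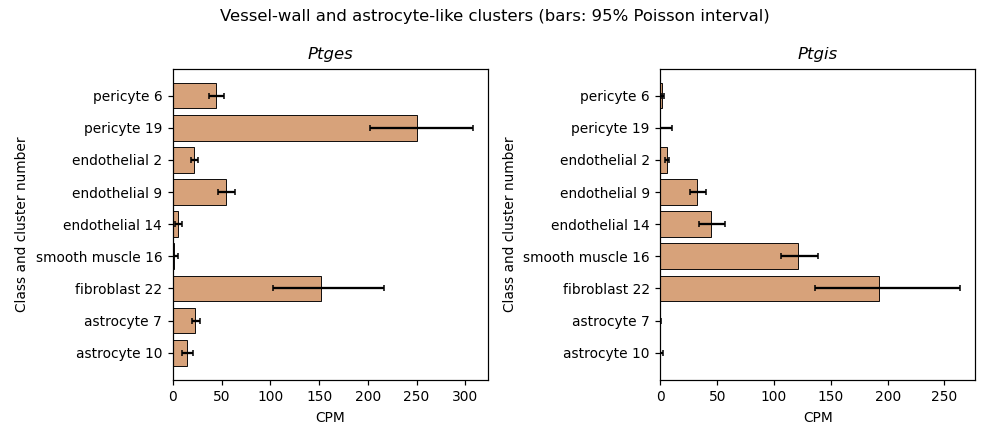
Level of Ptges (left) and Ptgis (right) in CPM in the vessel-wall and astrocyte-like clusters, with exact 95% Poisson intervals. Ptges was highest in pericyte-like cluster 19 (251 CPM) and Ptgis in fibroblast-like cells (192 CPM).

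Alox5ap, the 5-lipoxygenase-activating protein, was found in each of the myeloid classes. It was 1689.8 CPM (1594 to 1790.2) in neutrophil-like cells, 943 CPM in monocyte-derived macrophage-like cells, 543 CPM in Cd74-high myeloid cells and 441 CPM in microglia-like cells, and neutrophil-like cells exceeded macrophage-like cells by 1.79 times (1.67 to 1.92). In neutrophil-like cells it was 2289 CPM in library 3, 1901 in library 4 and 998 in library 6. In microglia-like cells it was 312 CPM in library 1, 331 in library 2, 518 in library 3, 480.3 in library 4, 332 in library 5 and 292 in library 6. Libraries 3 and 4 were the high ones, and their order differed from that of Ptgs2. Cluster 1 was 1.67 times cluster 5 (1.60 to 1.74).

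Ltc4s, the leukotriene C4 synthase, was lowest in the libraries and the cluster where Ptgs2 was highest. Its microglia-like level was 535 CPM (528 to 542), and 81.2% of cells had a UMI (40.01% when thinned). By library it was 635 CPM in library 1, 692 in library 2, 668 in library 3, 412 in library 4, 604 in library 5 and 299.99 in library 6. Libraries 4 and 6 were the 2 low ones. By cluster it was 801 CPM in cluster 1, 664 in cluster 0, 477 in cluster 3, 414 in cluster 21 and 199 in cluster 5, and cluster 1 exceeded cluster 5 by 4.03 times (3.84 to 4.22). The ratio was 3.05 in library 3, 3.49 in library 4 and 3.60 in library 6. For Ptgs1 the ratio of cluster 1 to cluster 5 was 1.78. Microglia markers were lower in cluster 5 too, with Tmem119 at 1894 CPM in cluster 1 and 791 CPM in cluster 5 and P2ry12 at 2737 and 465 CPM, and their part in the result was not tested. In choroid plexus-like cells, the next class, 5 of 22 cells held 83.3% of its UMIs. The level fell from 176 to 29.3 CPM when their Ltc4s UMIs were left out and their depth was kept.

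Both receptors gave few UMIs, 999 for Ptger4 and 72 for Ptger2. Ptger4, a prostaglandin E2 receptor that raises cyclic AMP, was 73.9 CPM (63.3 to 85.8) in Cd74-high myeloid cells, 2.66 times (2.06 to 3.45) the 27.8 CPM of macrophage-like cells, and 13.96 CPM in microglia-like cells. In microglia-like cells it was 13.6 CPM in library 1, 5.74 in library 2, 5.13 in library 3, 22.2 in library 4, 6.52 in library 5 and 29.7 in library 6, with libraries 6 and 4 highest. It was 38.4 CPM in cluster 5 and 0.865 CPM in cluster 1. Ptger2, the other such receptor, had 37 of its UMIs in macrophage-like cells, and its levels of 17.6 CPM in neutrophil-like, 10.8 in macrophage-like and 7.26 in Cd74-high myeloid cells did not differ between neighbours beyond their intervals. In macrophage-like cells Ptger2 was 24.7 CPM in library 4 and 4.50 in library 6 (ratio 5.48, 2.57 to 12.7), and Ptger4 went the other way, 14.6 and 33.7 CPM.

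The Cd74-high myeloid cells were not uniform. Re-clustered alone, they gave a perivascular macrophage-like group of 73 cells, in which Ltc4s was 390.1 CPM, Hpgds 269 and Ptgs1 119. The largest group of 128 cells, which stayed unnamed, had 4.78 CPM of Ltc4s and 11.6 of Hpgds. Ptger4 was 54.2 CPM in the first and 70.3 CPM in the second. Ltc4s and Hpgds of the parent class thus came mostly from its smaller groups. The ratios of Ptgs1 and Hpgds to the next class refer to this mixed class. Its perivascular macrophage-like group was nearer to microglia-like cells, which had 538 CPM of Hpgds, 535 of Ltc4s and 589 of Ptgs1.

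Members were also compared in single cells. In microglia-like cells Ptgs2 and Ptger4 were found together in 108 cells against 42.6 from the product of their shares within each library, summed over libraries, 2.54 times as many, and without called doublets it was 2.54 times too. Ptgs2 met Ptgs1 and Ltc4s less often than that product, at 0.828 and 0.799 of it. The product was taken within libraries and not within clusters. Ptgs2 and Ptger4 were both higher in cluster 5 than in cluster 1, and Ptgs1 and Ltc4s both lower. The part of these cluster differences in the counts was not tested. The pairs among Ptgs1, Hpgds, Alox5ap and Ltc4s lay between 1.01 and 1.04. Each of these genes was found in 81.2% to 89.0% of microglia-like cells, so their ratios had little room to rise above 1. In endothelial-like cells Ptgs1 and Hpgds were in the same cell 71 times against 5.59, a ratio of 12.7, or 23.5 without called doublets. In pericyte-like cells they met 26 times against 1.95. UMIs of these genes, highest in microglia-like cells, thus gathered in the same few cells. The part of free RNA and of uncalled doublets in this was not tested.

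Other genes of the pathway came from 6 lists of 33 genes in all. At least 50 CPM in some class was reached by 3 of 6 phospholipase and lipase genes and 4 of 5 terminal synthases. The same held for 4 of 5 genes of inactivation and transport and 2 of 7 prostanoid receptors. It also held for 3 of 6 lipoxygenase and leukotriene enzymes and 3 of 4 leukotriene receptors. Of all 32285 genes, 7747 reached 50 CPM in at least 1 of the 12 classes with at least 50 cells. The lists were read over all 14 classes. Of the phospholipase and lipase genes, Pla2g7 (1060 CPM, platelet-activating factor acetylhydrolase) and Mgll (619 CPM, monoacylglycerol lipase) were highest in astrocyte-like cells. Microglia-like cells were highest in Pla2g4a (107 CPM, cytosolic phospholipase A2), Tbxas1 (145 CPM, thromboxane synthase), Hpgd (534 CPM, which inactivates prostaglandins) and Cysltr1 (119 CPM). Between clusters 1 and 5 Hpgd was 3.53 times and Cysltr1 3.44 times higher in cluster 1, and within libraries 3, 4 and 6 the ratio was 1.502 to 3.49 for Hpgd and 2.69 to 7.26 for Cysltr1. Pla2g4a was 1.70 times higher in cluster 5 when pooled and 1.66 times (1.44 to 1.91) in library 4, but the intervals of libraries 3 (0.737 to 2.004) and 6 (0.904 to 1.48) included 1. Pericyte-like cells were highest in Ggt5 (379 CPM), Tbxa2r (218 CPM) and Cysltr2 (135 CPM). Alox5, 5-lipoxygenase itself, reached 42.5 CPM in neutrophil-like cells and Lta4h 53.0 CPM in T lymphocyte-like cells, and Ltb4r1, a leukotriene B4 receptor, was 116 CPM in macrophage-like cells. Ptges3 (400.4 CPM in oligodendrocyte-like cells) and Cbr1 (170 CPM in choroid plexus-like cells) are general enzymes with other substrates.

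Over the 12 classes with at least 50 cells, the genes most like each member were found by Pearson's r of log2(CPM + 10), among 7747 genes that reached 50 CPM. For Ptgs1 they were Neurl1a (r 0.978) and 0610040J01Rik, for Hpgds Arhgap22 (0.978), Neurl1a and Ptgs1, and for Ltc4s Fcrls (0.970), C1qc and Ang. Ptgs2 was nearest to Gpr35 (0.968), Hmox1 and Cd14, and Alox5ap to Tlr2 (0.986), Igsf6 and C5ar1. For Ptgds the nearest were Pex5l (0.967), Mbp and Nfasc, for Ptgis Kcna5 (0.978), Sncg and Slc16a11, and for Ptges Cthrc1 (0.928), Ece1 and Prex2. Ptger2 was nearest to Mcemp1 (0.998), Pilrb2 and Gm34084, and Ptger4 to Bcl2a1d (0.942), Map3k14 and Myo1g. The classes share libraries and depth, and these r describe 12 points.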

How the data were processed

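Single-cell 3′ RNA libraries were counted by the authors with Cell Ranger 5 on mm10, per the submitters' processing notes and the study's methods, and merged with a step that equalises sequencing depth between libraries, so UMI counts may be thinned. The deposited matrix (header software 5.0.1) holds unfiltered whole-number UMI counts per gene and barcode, with the library as the suffix of the barcode and no map from suffix to sample. One library per group gives no replicate error.

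Here a barcode was kept as a cell at 0.1 or more of a depth reference (percentile 99 among the 3000 barcodes richest in UMIs of that library), at least 200 features and at most 10% mitochondrial UMIs. The study's 2 filters alone left 19864 cells. Counts were log-normalised to 10000, 2000 variable genes without the members and pathway genes gave 30 components, and 20 neighbours were clustered by the Leiden method at resolution 0.8 (Python 3.11.15, scipy 1.17.1, leidenalg 0.10.2, scikit-learn 1.9.0). Clusters were named from fixed markers, at least 3 of which had to be raised. Leaving red blood cell markers out of naming and keeping the Cd74-high cluster unnamed by type were decided after seeing the clusters. Doublets were scored against simulated ones and kept. Library totals were 12427757 to 40793772 UMIs. CPM intervals are exact Poisson and ratio intervals exact conditional ones. To compare shares of cells, each cell was thinned to 1000 UMIs, which no cell was below. The steps were tested on simulated data with known changes.

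The members and lists were chosen with earlier results of these data known. The text names the members, pathway genes that reach 50 CPM or are partners of a member, the 3 genes most like each member and the 3 leading genes of a described cluster, except items that are not reported here. Alternatives were other cell filters, clustering resolutions and naming with the members as variable genes, doublets removed, other averaging, thinning and each library left out.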

Additional observations from a re-analysis of the deposited data

How the results depend on the processing

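Each of the 10 members kept its highest class under the other cell filters, resolutions and averaging and without doublets, and 9 did when cells were thinned to 1000 UMIs, where Ptger2 moved to macrophage-like cells. By thinning, and by the mean of each cell's own CPM, Ptgds no longer stood at least 4 times above the next class, which left 2 members. Leaving out a library in turn gave 9 to 10 members with the same highest class, 2 to 4 with a level at least 4 times the next class (3 in all libraries), and 6 to 9 with over 50% of UMIs in 1 class (8 in all libraries). Without library 3 Ltc4s joined the first count, without library 4 Ptgds left it and Ptgs2 and Ptger2 left the other, and without library 6 Ptger4 replaced Ptgds. Ptgs2 also no longer had over 50% of its UMIs in microglia-like cells without library 3 and at resolution 1.2. At that resolution a cluster of 238 cells led by Spp1, Lpl and Mmp12, with 3 microglia markers raised, stayed unnamed. Microglia and perivascular macrophage markers were too close in it, so the microglia-like name of such cells depended on the resolution. Members with a UMI in over 50% of the cells of some class numbered 6 as deposited, 6 in each leave-one-out run and 2 when thinned. The members spread at least 3 times between libraries numbered 2 to 3 in microglia-like cells when a library was left out, 5 to 8 in endothelial-like cells (5 without library 3), 2 to 3 in pericyte-like cells, 4 to 4 in oligodendrocyte-like cells and 1 to 5 in astrocyte-like cells (1 without library 3, 3 without doublets, 5 of 6 in all, against 12.5% of genes). Without doublets the counts were 6 in endothelial-like cells (Ptgs1 and Alox5ap lost), 2 in pericyte-like cells (Ptgs1 lost) and 3 in oligodendrocyte-like cells (Alox5ap lost). Ptgs2 and Ptger4 met in 3.65 times as many thinned cells as the product of their shares within libraries, on 14 cells. With a pseudocount of 1 CPM, 15 of the 30 most alike genes were kept. Of 80 member levels under other settings 59 stayed within their interval and 21 moved, and of 60 without a library 37 stayed and 23 moved. A setting added after seeing the data left out a member's UMIs in its 5 richest cells but kept their depth. Of its 15 levels 3 stayed and 12 moved. The causes were not tested. No paired analysis was possible because each group has 1 library and the columns carry no replicate number.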
